A study of Schizosaccharomyces pombe with 12 samples.

Results

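The fission yeast *Schizosaccharomyces pombe* transcribes long non-coding RNAs (lncRNAs) from a large number of loci, and 257 of these were present at a moderate level in wild-type cells. They were chosen by their raw counts, as the SPNCRNA loci with at least 300 and below 900 counts summed over the 3 wild-type libraries, and they made up 257 of the 1524 SPNCRNA loci and of the 6986 loci in the count table. Poly(A)+ RNA was sequenced from 4 strains of the h+ mating type grown to log phase at 30°C in YES medium: wild-type, *ppn1*Δ (*ppn1*Δ::HygMX), *swd22*Δ (*swd22*::HygMX) and *dis2*Δ (*dis2*Δ::NatMX), with 3 biological replicates each. Values for the 3 mutants are given in the order *ppn1*Δ, *swd22*Δ, *dis2*Δ unless stated. In each mutant the named gene was replaced by a drug-resistance cassette, and each genotype was a single laboratory strain. The 12 libraries held between 17616688 and 23435936 counts, of which the 257 loci took 0.204% to 0.253%. Counts on the deleted gene fell to 21.3% of wild-type for *ppn1*, 1.08% for *swd22* and 6.62% for *dis2*. These counts are over the annotated exons, and where in them the remaining reads lie cannot be told from the counts. The study reported that the coding sequence deleted in each null strain had no reads.

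Dis2, Swd22 and Ppn1 form the DPS module of the Cleavage and Polyadenylation Factor (CPF), the complex that cleaves nascent RNA polymerase II transcripts at the poly(A) site and sets up termination. Dis2 is a PP1-type protein phosphatase, Swd22 a WD-repeat protein, and Ppn1 the subunit that joins them to the CPF core. Fission yeast lncRNAs are made by the same polymerase, and their levels depend on where transcription ends and on how fast the nuclear exosome, guided for part of the transcripts by the YTH-domain protein Mmi1, destroys them. A lncRNA can lie across a coding gene on the opposite strand, between genes, or upstream of a gene whose promoter it runs into, as in the *prt*-*pho1* system of phosphate control.

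The set was mixed in kind. Of the 257 loci, 256 matched the annotation used here, 255 were classed there as lncRNA, and 7 carried a gene symbol. The label lncRNA does not suit 2 of these 7, since *rrk1* (SPNCRNA.128) is the RNA of RNase P and *mrp1* (SPNCRNA.82) the RNA of RNase MRP. Another, SPNCRNA.1483, was classed as a snoRNA locus, and 43 loci were annotated as possible alternative UTRs of a neighboring gene. The other named loci were *omt3*, *nam1*, *nam3*, *meu16* and *prl61*. By position, 154 loci had 50% or more of their length antisense to a coding gene, 52 had a smaller overlap and 50 had none. The loci were between 392 and 4984 nucleotides long (median 1499), against a median of 953 for the other 1177 matched SPNCRNA loci, and their GC content ran from 29.1% to 42.4% (median 35.2%). Chromosomes I, II and III held 121, 84 and 51 of them.

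Because the wild-type libraries chose the loci, their wild-type levels are a description. At the lower edge SPNCRNA.1320, SPNCRNA.1516 and SPNCRNA.1583 had 300, 301 and 302 raw counts and were inside, while SPNCRNA.1517 and SPNCRNA.1257 had 297 each and were outside. At the upper edge SPNCRNA.1581 had 898 and was inside, and SPNCRNA.1002 had 906 and was outside. Wild-type means ran from 101.4 to 303.7 normalized counts (scaled by edgeR's TMM factors to a library of 20755522 counts), and the median coefficient of variation between the 3 wild-type replicates was 9.97%. Per kilobase of annotated length the highest wild-type level belonged to SPNCRNA.907, with 620.7 normalized counts per kb over 392 nucleotides. The lowest belonged to SPNCRNA.1021, with 27.5 per kb over 4039 nucleotides, and 87.8% of SPNCRNA.1021 lies antisense to *mid2*, which encodes a septin ring organizing protein and had 15082.3 normalized counts in wild-type. The wild-type replicates of SPNCRNA.1487 scattered most, and the locus had 363, 90 and 93 raw counts in wild-type cells, 26, 114 and 31 in *ppn1*Δ, 20, 213 and 22 in *swd22*Δ and 127, 66 and 41 in *dis2*Δ. This locus overlaps a snoRNA gene, and its groups overlapped throughout.

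The 3′ ends of the loci are shown for those that changed most, because CPF acts at the 3′ end and AATAAA is the classical poly(A) signal. The 6 sequences are the last 100 nucleotides of the annotated RNA, read 5′ to 3′ from the RefSeq genome ASM294v3 with AATAAA in capitals. They belong to the 3 named loci with the largest mean rise over the mutants and the 3 with the largest mean fall, leaving out *prl61* and the loci annotated as possible UTRs. The 3 that rose lie at III:1565774-1565873 (minus strand), II:4464625-4464724 (minus) and I:799485-799584 (minus).
SPNCRNA.1206: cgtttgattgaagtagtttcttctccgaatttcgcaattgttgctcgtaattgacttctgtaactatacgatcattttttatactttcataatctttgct
*nam3*: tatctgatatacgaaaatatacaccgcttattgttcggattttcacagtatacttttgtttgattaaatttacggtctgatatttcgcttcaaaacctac
SPNCRNA.687: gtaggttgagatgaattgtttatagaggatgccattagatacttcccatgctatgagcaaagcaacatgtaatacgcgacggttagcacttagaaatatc
The 3 that fell lie at I:4516971-4517070 (plus strand), II:1869993-1870092 (minus) and II:4129491-4129590 (minus).
*omt3*: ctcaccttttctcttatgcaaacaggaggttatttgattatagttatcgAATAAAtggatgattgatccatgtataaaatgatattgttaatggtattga
SPNCRNA.1470: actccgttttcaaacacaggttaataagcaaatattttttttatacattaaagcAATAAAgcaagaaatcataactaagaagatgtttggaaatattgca
SPNCRNA.1673: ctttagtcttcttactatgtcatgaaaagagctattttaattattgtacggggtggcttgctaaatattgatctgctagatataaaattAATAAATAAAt
None of the 3 ends that rose held AATAAA and each of the 3 that fell did. Over all called loci the difference was smaller, with the word on the transcript strand of the last 100 nucleotides in 3 of the 20 loci called higher in at least 1 mutant and in 9 of the 43 called lower. The word was present there in 59 of the 256 matched loci (23.0%) and in 292 of the other 1177 SPNCRNA loci (24.8%).

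A locus is called here when edgeR's quasi-likelihood test gave a Benjamini-Hochberg adjusted p of at most 0.05 over the 6110 loci tested, the fold change was at least 2, and the mean was at least 100 normalized counts in either strain. All 257 loci were tested, and against wild-type all met the last condition through their wild-type level. Between 2 mutants the condition applies to the mutant means, and a locus can miss it. In *ppn1*Δ cells 16 of the 257 were called higher and 27 lower, where 1.67% and 1.78% of all loci tested were called higher and lower. In *swd22*Δ cells 13 were called higher and 31 lower (1.54% and 1.72% of all loci), and in *dis2*Δ cells 10 higher and 26 lower (1.75% and 1.03%). By adjusted p alone, 70 rose and 72 fell in *ppn1*Δ (24.5% and 25.2% of all loci), 57 and 78 in *swd22*Δ (19.3% and 20.5%), and 63 and 72 in *dis2*Δ (19.5% and 21.8%). The median log2 fold changes of the 257 loci were -0.08, -0.11 and -0.04, against 0.01, 0 and 0 over all loci.

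The balance of rises and falls differed with the libraries used to choose the loci. The same wild-type libraries set the window and serve as the control in these comparisons. When the window was instead applied to the mutants, as the mean over the 3 strains of the summed counts, which took 297 loci of which 184 were shared, 39 were called higher and 12 lower in *ppn1*Δ, 37 and 13 in *swd22*Δ, and 23 and 11 in *dis2*Δ. Each choice rests on libraries of the comparison, so the part of the selection in either balance cannot be told apart from a change of the loci. Comparisons between 2 mutants, given below, do not use wild-type as the control, but the wild-type window still chose the loci counted in them.

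In all, 63 loci were called in at least 1 mutant, 20 of them higher and 43 lower, and no locus was called in opposite directions in different mutants. The 5 loci called higher in all 3 mutants were SPNCRNA.1206, *nam3*, SPNCRNA.687, SPNCRNA.1179 and *meu16*. Another 15 were called lower in all 3. *ppn1*Δ and *swd22*Δ shared 12 loci called higher and 24 called lower, and the 3 comparisons share their wild-type libraries. The matching counts over all loci are not given here, so these overlaps are not set against a background.

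The loci that rose and those that fell differed in position. Of the 20 loci called higher in at least 1 mutant, 18 had 50% or more of their length antisense to a coding gene, 1 had a smaller overlap and 1 had none. Of the 43 called lower, 16 were antisense, 13 had a smaller overlap and 14 had none. Among the 154 antisense loci 59 rose and 35 fell by adjusted p in *ppn1*Δ, 50 and 37 in *swd22*Δ, and 48 and 38 in *dis2*Δ. Among the 50 loci with no overlap 8 rose and 16 fell in *ppn1*Δ, 4 and 21 in *swd22*Δ, and 8 and 16 in *dis2*Δ. The median log2 fold changes of the antisense loci were 0.07, -0.02 and 0.04 in the 3 mutants, those of the loci with a smaller overlap -0.22, -0.24 and -0.15, and those of the loci with none -0.21, -0.34 and -0.11. Of the 102 loci whose next coding gene on the same strand starts within 1000 nucleotides of their 3′ end, 2 were called higher and 17 lower in *ppn1*Δ, 3 and 18 in *swd22*Δ, and 2 and 16 in *dis2*Δ. With the window applied to the mutants this class had 106 loci, with 6 higher and 7 lower, 5 and 7, and 4 and 6, so that its excess of falls was not kept.

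By call, 14 antisense loci were higher and 8 lower in *ppn1*Δ, 12 and 10 in *swd22*Δ, and 8 and 9 in *dis2*Δ. The window applied to the mutants favors loci that are high there. With it the 189 antisense loci had 37 called higher and 5 lower in *ppn1*Δ, 35 and 6 in *swd22*Δ, and 17 and 6 in *dis2*Δ. The 51 loci with no overlap had 1 higher and 2 lower, 1 and 2, and 4 and 3. The antisense medians were then 0.45, 0.32 and 0.23 and those of the loci with no overlap -0.02, -0.08 and 0.14, so that in *dis2*Δ the latter were no longer below 0. Among the tested SPNCRNA loci outside the set the antisense medians were 0.47, 0.37 and 0.29 (432 loci) and those with no overlap -0.11, -0.26 and -0.12 (193 loci). Of the 1142 SPNCRNA loci below 300 wild-type counts 664 were tested. A locus could pass the count filter through a mutant in which it was high, so these medians are not free of selection. These are descriptions of groups of loci, which are not independent replicates.

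**Figure D1:**
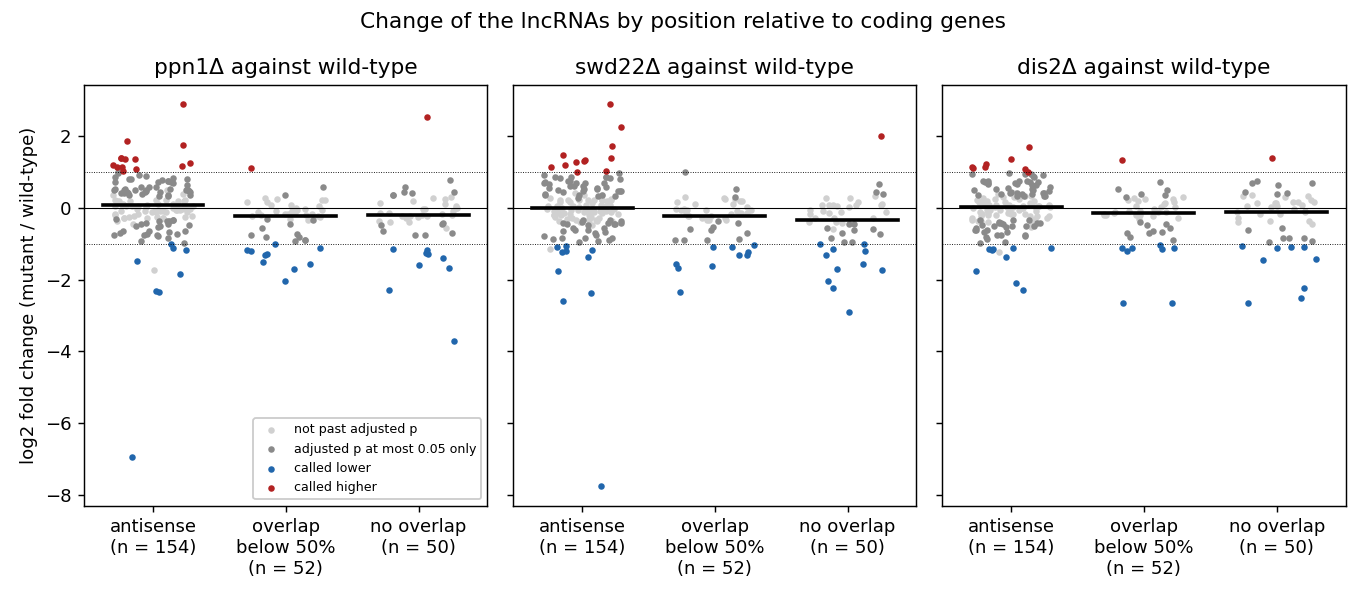
log2 fold change of each of the 256 annotated loci (vertical axis) in each mutant against wild-type, by position relative to coding genes; black bars are medians, dotted lines mark 2-fold, and colors mark loci called higher, called lower, past adjusted p only, or not past it. Of the 20 loci called higher in any mutant 18 are in the antisense columns, and the lowest points, at -6.94 and -7.76, are *prl61*.

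SPNCRNA.1206 had the largest rise. It is a 4984-nucleotide RNA on chromosome III (III:1565774-1570757, ASM294v3) that lies wholly antisense to *nup211*, the gene of a large nucleoporin. Its normalized counts were 139.8, 161.1 and 162.6 in wild-type cells, 1189.1, 929.3 and 1285.4 in *ppn1*Δ, 1287.2, 869.3 and 1292.8 in *swd22*Δ, and 512.1, 478.0 and 518.4 in *dis2*Δ. Every mutant library was above every wild-type library, and the *dis2*Δ libraries lay between wild-type and the other mutants without overlap. In bulk RNA, more cells with a transcript and more of it per cell cannot be told apart. The log2 fold changes were 2.88 ± 0.155 (SE, edgeR adjusted p = 3.1e-10), 2.89 ± 0.155 (4.1e-10) and 1.7 ± 0.159 (3.3e-07). *nup211* itself had 681.7 normalized counts in wild-type and log2 fold changes of 0.16, 0.01 and 0.09, none of which passed the test.

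*nam3* (SPNCRNA.1696) was the only called riser with no overlap with a coding gene. It is 1662 nucleotides long and lies near the right end of chromosome II (II:4464625-4466286). Its normalized counts were 120.6, 154.4 and 109.5 in wild-type cells, 690.3, 754.5 and 802.5 in *ppn1*Δ, 541.2, 577.6 and 417.9 in *swd22*Δ, and 325.9, 304.4 and 381.0 in *dis2*Δ. No 2 strains overlapped, in the order *ppn1*Δ, *swd22*Δ, *dis2*Δ and wild-type. Fold changes on the log2 scale were 2.54 ± 0.144, 1.99 ± 0.146 and 1.39 ± 0.149 (adjusted p = 5.7e-10, 1.8e-08 and 1.6e-06). Of its coding neighbors 2 rose as well, the phosphoprotein phosphatase gene SPBPB2B2.06c by log2 3.32, 2.96 and 4.04 and the divergent gene SPBPB2B2.05, of the class I glutamine amidotransferase family, by 2.09, 1.75 and 1.94. *ecl3*, the next gene downstream on the strand of *nam3* at a distance of 22798 nucleotides, fell (log2 -1.62, -1.63 and -0.94, adjusted p = 4.6e-06, 6.6e-06 and 0.00083).

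SPNCRNA.687, a 528-nucleotide RNA wholly antisense to *cph1* (a PHD-domain protein of the Clr6 histone deacetylase complex), had 124.6, 171.6 and 176.7 normalized counts in wild-type cells, 692.1, 296.6 and 728.8 in *ppn1*Δ, 910.1, 380.7 and 978.6 in *swd22*Δ, and 407.8, 336.3 and 347.7 in *dis2*Δ. Replicate 2 of *ppn1*Δ and of *swd22*Δ was far below the other replicates but above wild-type. This gave log2 fold changes of 1.87 ± 0.325, 2.26 ± 0.325 and 1.21 ± 0.333 (adjusted p = 0.00017, 3.5e-05 and 0.0078). *cph1* had 1932.8 normalized counts in wild-type and log2 fold changes of 0.14, 0.43 and 0.18, of which 0.43 in *swd22*Δ passed the test (adjusted p = 0.00067).

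SPNCRNA.1179 lies wholly antisense to *atd3*, an aldehyde dehydrogenase gene. It rose from 129.7, 131.6 and 132.3 normalized counts in wild-type to 439.5, 417.3 and 479.5 in *ppn1*Δ, 463.7, 311.5 and 527.0 in *swd22*Δ and 269.1, 272.5 and 290.4 in *dis2*Δ. Every *dis2*Δ library was below every *ppn1*Δ and *swd22*Δ library. Against wild-type the log2 fold changes were 1.76, 1.72 and 1.08, while those of *atd3* were -0.38 (adjusted p = 0.01), -0.28 (0.055) and 0.15 (0.3).

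*meu16* (SPNCRNA.928), whose name marks transcripts raised in meiosis, is 97.8% antisense to *mde6*, which encodes a muskelin-like protein. It had 221.9, 229.7 and 146.3 normalized counts in wild-type cells, 406.7, 433.1 and 386.8 in *ppn1*Δ, 535.0, 482.9 and 492.0 in *swd22*Δ, and 481.3, 417.6 and 412.2 in *dis2*Δ, so that wild-type was below each mutant without overlap. On the log2 scale the changes were 1.03 ± 0.134, 1.33 ± 0.134 and 1.13 ± 0.134 (adjusted p = 9.1e-06, 7.7e-07 and 5.3e-06). Without replicate 3 of wild-type, the low one, they were 0.85 in *ppn1*Δ and 0.95 in *dis2*Δ, under 2-fold, and without replicate 2 of *ppn1*Δ the value there was 0.99. *mde6* fell in the 3 mutants, with log2 fold changes of -0.86, -0.88 and -0.52 (adjusted p = 9e-06, 1.1e-05 and 0.0014), and so did *pun1*, the SUR7 family gene downstream on the strand of *meu16* (-0.93, -1.17 and -0.94).

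The genes on the other strand did not move as a group with the antisense lncRNAs. Of the 14 antisense loci called higher in *ppn1*Δ with a tested partner gene, 3 partners rose, 4 fell and 7 did not pass adjusted p, and in *swd22*Δ the counts were 1, 3 and 8 of 12. In *dis2*Δ they were 3, 1 and 4 of 8. Over all loci 24.5% rose and 25.2% fell by adjusted p in *ppn1*Δ, 19.3% and 20.5% in *swd22*Δ, and 19.5% and 21.8% in *dis2*Δ. Partner log2 fold changes lay between -1.07 and 0.46 in *ppn1*Δ and between -0.88 and 0.43 in *swd22*Δ. The lowest, -1.07, was SPAC30C2.03, and its antisense lncRNA SPNCRNA.1007 rose by log2 1.2.

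The level of an antisense lncRNA was often well below that of its partner. In wild-type the antisense loci held a median of 31.5% of the normalized count of their partner (151 pairs, from 0.428% for SPNCRNA.1597 across *lys9* to 1688.3%), and 2 were under 1%. The 33 loci with their whole length antisense to coding genes each had at least 311 raw counts over the wild-type libraries. The window that chose the loci already required a minimum count in these libraries, so this cannot show the strand of the reads. The strand setting of the counting is not given in the sources used here, and the part of reads from the partner in these values was not tested.

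**Figure D2:**
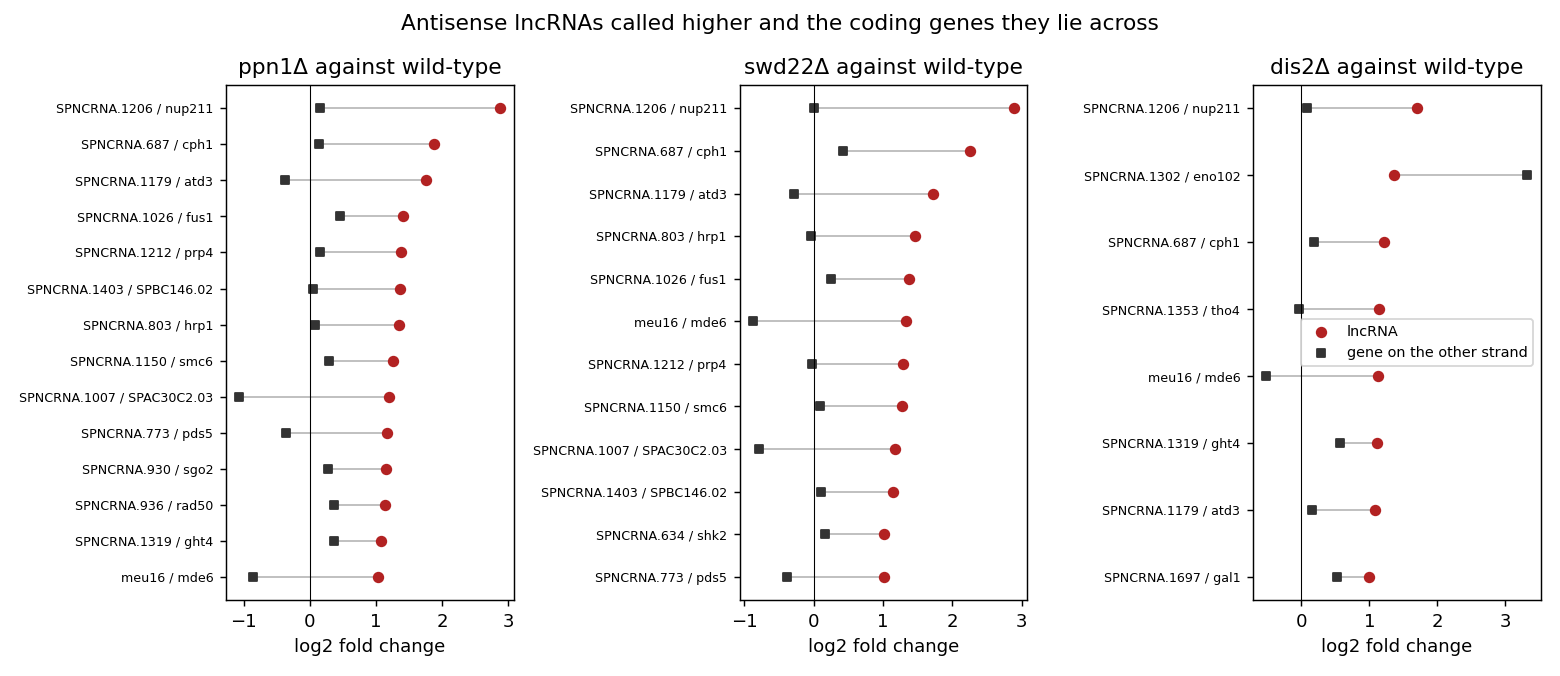
log2 fold change against wild-type (horizontal axis) of each antisense lncRNA called higher (red circles) and of the coding gene it lies across (black squares), with 14, 12 and 8 pairs in the panels from left to right. The partner lies near 0 for SPNCRNA.1206 (0.16, 0.01 and 0.09), and the exception above its lncRNA is *eno102* in *dis2*Δ, at 3.33.

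SPNCRNA.1302 was called only in *dis2*Δ. It is 1232 nucleotides long and wholly antisense to *eno102*, an enolase gene, near the left end of chromosome II. Its normalized counts were 217.8, 220.2 and 225.5 in wild-type cells, 293.6, 324.8 and 261.7 in *ppn1*Δ, 282.3, 223.5 and 255.3 in *swd22*Δ, and 622.9, 557.2 and 533.0 in *dis2*Δ. The *dis2*Δ libraries stood apart, with a log2 fold change of 1.37 ± 0.112 (adjusted p = 7.3e-08) against wild-type. *eno102* had only 59.7 normalized counts in wild-type and changed by log2 -0.76, -1.41 and 3.33 in the 3 mutants, each past the test. The lncRNA and the gene across from it thus rose together in *dis2*Δ, and the lncRNA did not fall where the gene fell. SPNCRNA.605, near the left end of chromosome I, which overlaps the hydrolase gene *hhy1* for 48.3% of its length, was called higher in *ppn1*Δ (log2 1.11) and *dis2*Δ (1.32) and just missed 2-fold in *swd22*Δ (0.99).

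*omt3* (SPNCRNA.130) fell most in *ppn1*Δ and *swd22*Δ among the loci away from chromosome ends. It is a 1001-nucleotide lncRNA known from the pairing of homologous chromosomes in meiosis, and it lies between genes on chromosome I (I:4516070-4517070), upstream of *omt2*. Normalized counts were 331.3, 277.4 and 275.3 in wild-type cells, 21.9, 13.5 and 29.8 in *ppn1*Δ, 39.7, 33.1 and 45.8 in *swd22*Δ, and 162.9, 139.6 and 159.3 in *dis2*Δ. The 4 strains did not overlap. The log2 fold changes were -3.71 ± 0.198, -2.9 ± 0.184 and -0.93 ± 0.156 (adjusted p = 2.9e-10, 4e-09 and 0.00015), the last short of 2-fold. *omt2*, 378 nucleotides downstream on the same strand, changed by log2 0.1, 0.05 and 0.45, of which the last passed the test.

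Another group of loci fell in all 3 mutants by similar amounts. SPNCRNA.1378, which overlaps the mitochondrial assembly gene *cbp6* on the other strand and is annotated as a possible alternative UTR, went from 238.1, 266.0 and 340.4 normalized counts in wild-type to 57.4, 53.0 and 54.7 in *ppn1*Δ, 46.9, 52.1 and 39.3 in *swd22*Δ and 66.1, 64.8 and 40.6 in *dis2*Δ. Its log2 fold changes were -2.35, -2.6 and -2.29, and *cbp6* rose by 0.51, 0.56 and 0.37. SPNCRNA.1470, whose 3′ end is printed above, lies wholly antisense to the phosphoserine phosphatase gene *ser2* and had 131.7, 114.4 and 206.0 in wild-type cells, 31.0, 25.9 and 31.5 in *ppn1*Δ, 26.5, 29.4 and 30.5 in *swd22*Δ and 36.3, 28.6 and 39.6 in *dis2*Δ. Its log2 fold changes were -2.33, -2.38 and -2.1, and those of *ser2* were -0.48, -0.18 and -0.19, each past the test. No mutant library of either locus reached the lowest wild-type library.

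SPNCRNA.1125, a 675-nucleotide locus between genes on chromosome III, fell less in *dis2*Δ than in the other mutants. It had 171.2, 179.2 and 160.4 normalized counts in wild-type cells, 31.9, 41.7 and 31.5 in *ppn1*Δ, 32.6, 33.1 and 42.5 in *swd22*Δ and 70.8, 79.1 and 86.4 in *dis2*Δ. Fold changes on the log2 scale were -2.29, -2.24 and -1.11, and *dis2*Δ was above *ppn1*Δ by log2 1.18 ± 0.181 (adjusted p = 0.00011).

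A further group fell most in *dis2*Δ. SPNCRNA.316, the most AT-rich of the 257 with a GC content of 29.1%, had 254.3, 199.2 and 222.2 normalized counts in wild-type cells, 70.2, 112.8 and 101.9 in *ppn1*Δ, 69.3, 54.0 and 41.5 in *swd22*Δ and 30.7, 31.9 and 56.2 in *dis2*Δ. This gave log2 fold changes of -1.25, -2.03 and -2.51, and *dis2*Δ was below *ppn1*Δ by log2 -1.26 ± 0.248 (adjusted p = 0.0011), while *dis2*Δ and *swd22*Δ overlapped (adjusted p = 0.23). SPNCRNA.427 (log2 -1.4, -1.74 and -2.66) and SPNCRNA.1340 (-1.14, -1.2 and -2.22) followed the same order, with *dis2*Δ below *ppn1*Δ by -1.26 (adjusted p = 0.012) and -1.08 (0.0042). Without replicate 3 of *ppn1*Δ the fall of SPNCRNA.1340 there was -0.96, under 2-fold. SPNCRNA.1251 had log2 fold changes of -2.05, -2.35 and -2.66, its differences between mutants did not pass the test, and without replicate 1 of *swd22*Δ its change there was -2.96.

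SPNCRNA.1673 fell, and so did 2 of its 3 coding neighbors. It had 179.3, 209.7 and 183.2 normalized counts in wild-type cells, 55.6, 64.3 and 81.2 in *ppn1*Δ, 44.8, 83.3 and 48.0 in *swd22*Δ and 27.9, 24.2 and 38.5 in *dis2*Δ. Against wild-type the log2 fold changes were -1.5, -1.69 and -2.65. *abp2*, which encodes an ARS-binding protein and overlaps 27.1% of the lncRNA on the other strand, fell as well (log2 -1.74, -1.51 and -1.67), and so did *cnp3*, a centromere protein gene 825 nucleotides downstream (-1.52, -1.56 and -1.97). *prp24*, the RNA-binding protein gene upstream on the same strand, did not pass the test (-0.04, -0.15 and -0.15).

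**Figure D3:**
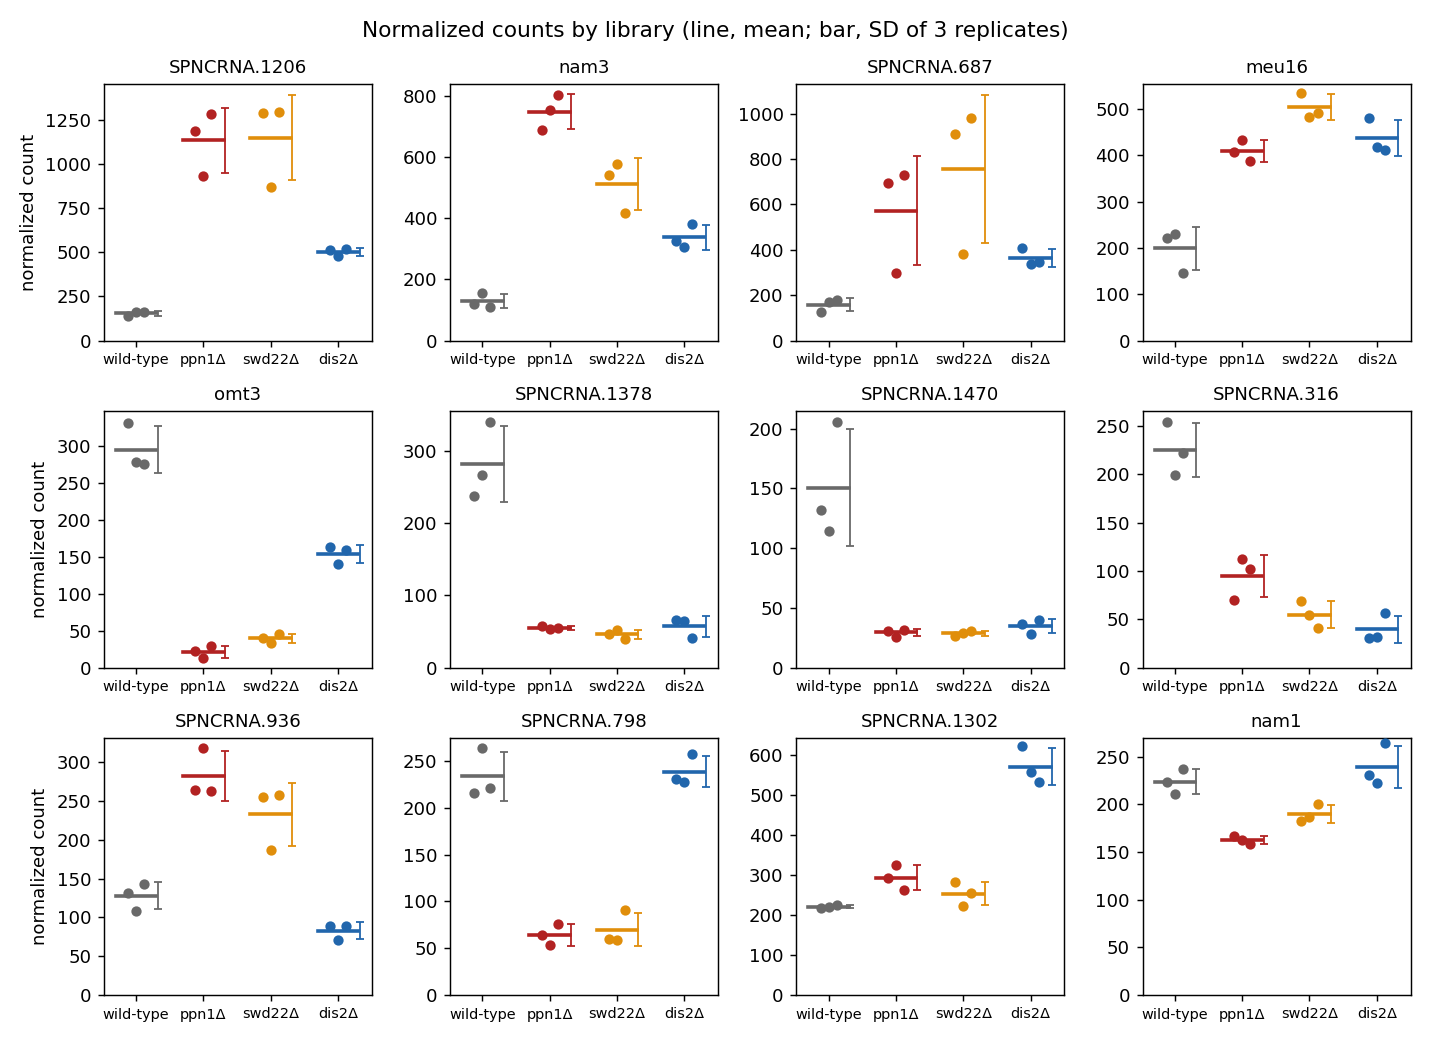
Normalized counts (vertical axis, from 0) of 12 lncRNAs in each of the 12 libraries, by strain; points are libraries, lines means and bars SDs of 3 replicates. The top row rose in all mutants, the middle row fell, and in the bottom row *dis2*Δ parted from the other mutants, as for SPNCRNA.936 (264.4, 319.2 and 263.4 in *ppn1*Δ against 88.4, 70.3 and 89.5 in *dis2*Δ).

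*prl61* (SPNCRNA.61) was close to 0 in 2 of the mutants, as were the other transcripts around it. It is 444 nucleotides long and lies close to the right end of chromosome I (I:5546205-5546648). Raw counts were 174, 217 and 331 in wild-type cells, 5, 0 and 1 in *ppn1*Δ, 0, 3 and 0 in *swd22*Δ and 365, 276 and 334 in *dis2*Δ. In *swd22*Δ, with at most 3 counts in a library, it was at least 80.9-fold lower than in wild-type, computed from 3 counts per library, and in *ppn1*Δ the mean was 0.726% of wild-type. In *dis2*Δ the log2 fold change of 0.42 did not pass the test (adjusted p = 0.15), though without replicate 3 of wild-type it was 0.78 (adjusted p = 0.0096). All 9 loci of the last 50 kb of chromosome I with at least 20 normalized counts in wild-type, a list drawn up after these values were seen, were under 10% of wild-type in both *ppn1*Δ and *swd22*Δ. They include *gdt1* (3.1% and 0.859%) and *ftm4* (0.238% and 0.88%). In *dis2*Δ the 9 loci ranged from 53.8% of wild-type for SPAC750.06c, the only 1 of them below wild-type, to 479.2% for SPAC186.04c. DNA was not measured, so fewer transcripts and fewer copies of the locus cannot be told apart.

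The direct comparisons set mutant libraries against each other, and the wild-type libraries enter these tests only through the scaling and the shared estimate of spread. They still chose which loci were counted, so the balance of the direct calls is not free of the selection. *ppn1*Δ and *swd22*Δ differed little. With edgeR none of the 257 loci was called between them, and 1 was higher and 3 lower in *swd22*Δ by adjusted p alone (5.27% and 1.05% of all loci), where 29 had an unadjusted p under 0.05 and DESeq2 called none and gave 3 and 7 past adjusted p. Leaving out single libraries gave between 0 and 7, with 0 without replicate 3 of *swd22*Δ, 1 without its replicate 1, 7 without its replicate 2, and 2 each without replicate 2 or 3 of *ppn1*Δ. With library size only as the scaling it was 0 higher and 2 lower. The 2-fold calls were 0.0327% and 0.0164% of all loci. The 4 loci were SPNCRNA.1391 (log2 0.4), *nam3* (-0.55), SPNCRNA.963 (-0.61) and SPNCRNA.970 (-0.56), and SPNCRNA.963 is 1 of 2 loci in which under 90% of the 51-base words are unique in the genome. In 252 of the 257 the strains were within 1.5-fold of each other, with a median standard error of 0.145 on the log2 scale. *omt3* was higher in *swd22*Δ than in *ppn1*Δ by log2 0.81 ± 0.245 and did not pass the test (adjusted p = 0.057).

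*dis2*Δ differed from both. Against *ppn1*Δ 8 loci were called higher and 3 lower (1.24% and 0.491% of all loci), and by adjusted p alone 46 were higher and 59 lower (16.1% and 12.6%). With library size only as the scaling the latter were 30 and 70, and without replicate 2 of *dis2*Δ 65 loci passed in place of 105. Against *swd22*Δ 9 were called higher and 3 lower (1.1% and 0.278%), with 36 higher and 24 lower by adjusted p alone (9.71% and 8.87%). Without replicate 1 of *swd22*Δ or replicate 2 of *dis2*Δ the 60 became 38 or 39. With the window applied to the mutants the calls of *dis2*Δ against *ppn1*Δ were 8 higher and 11 lower.

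The loci called higher in *dis2*Δ included those with the largest falls in the other mutants. *prl61* differed from *ppn1*Δ by log2 7.37 and *omt3* by 2.78 ± 0.207 (adjusted p = 2.8e-08), and *omt3* differed from *swd22*Δ by 1.97 ± 0.191 (1.3e-06). The other loci called higher than in *ppn1*Δ, besides SPNCRNA.798, were SPNCRNA.1510 (log2 1.55), SPNCRNA.1015 (1.42), SPNCRNA.1318 (1.31), SPNCRNA.840 (1.2) and SPNCRNA.1572 (1.0). SPNCRNA.798, a locus 93.4% antisense to the hydrolase gene SPAC23C11.06c, had 215.8, 264.1 and 221.1 normalized counts in wild-type cells, 63.8, 53.0 and 76.2 in *ppn1*Δ, 60.1, 58.7 and 90.6 in *swd22*Δ and 230.9, 227.5 and 258.1 in *dis2*Δ. The *dis2*Δ libraries overlapped wild-type and stood above both other mutants, by log2 1.88 ± 0.171 over *ppn1*Δ (adjusted p = 3.8e-07) and 1.78 ± 0.171 over *swd22*Δ (1.1e-06). Of the 16 loci that *ppn1*Δ shared with *swd22*Δ but *dis2*Δ lacked among its calls, 14 differed between *dis2*Δ and *ppn1*Δ by adjusted p and 7 of them by 2-fold. Of the 12 called in *dis2*Δ alone, 10 differed from *ppn1*Δ and 4 from *swd22*Δ by adjusted p, and none was called against *ppn1*Δ at 2-fold. Both groups were picked by calls that used the same mutant libraries, so these counts are a description and no separate test. Over all loci 16.1% were higher and 12.6% lower in *dis2*Δ against *ppn1*Δ by adjusted p. Against *swd22*Δ the shares were 9.71% and 8.87%.

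SPNCRNA.936 moved in opposite directions. It lies wholly antisense to the DNA repair gene *rad50* and had 131.7, 108.7 and 143.1 normalized counts in wild-type cells, 264.4, 319.2 and 263.4 in *ppn1*Δ, 254.8, 186.5 and 258.6 in *swd22*Δ and 88.4, 70.3 and 89.5 in *dis2*Δ. It was above wild-type in every *ppn1*Δ and *swd22*Δ library and below it in every *dis2*Δ library. On the log2 scale the changes were 1.14 (adjusted p = 1.3e-05), 0.87 (0.00029) and -0.62 (0.0082), and *dis2*Δ was below *ppn1*Δ by log2 -1.76 ± 0.162 (4.1e-07) and below *swd22*Δ by -1.49 ± 0.164 (6.1e-06). *rad50* changed by 0.36, 0.36 and 0.23, of which the first 2 passed the test (adjusted p = 0.042 and 0.049). SPNCRNA.1206 and *nam3* were also lower in *dis2*Δ than in *ppn1*Δ, by log2 -1.18 ± 0.138 and -1.15 ± 0.131. SPNCRNA.1302 was higher in *dis2*Δ than in *swd22*Δ by 1.17 ± 0.111 (adjusted p = 9.1e-07). SPNCRNA.687 was lower in *dis2*Δ than in *swd22*Δ by -1.05 ± 0.299 (adjusted p = 0.022), a call lost with DESeq2 (0.063) and without replicate 1 or 3 of *swd22*Δ (-0.89 and -0.82) or replicate 2 or 3 of *dis2*Δ (-0.98 and -1.02).

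**Figure D4:**
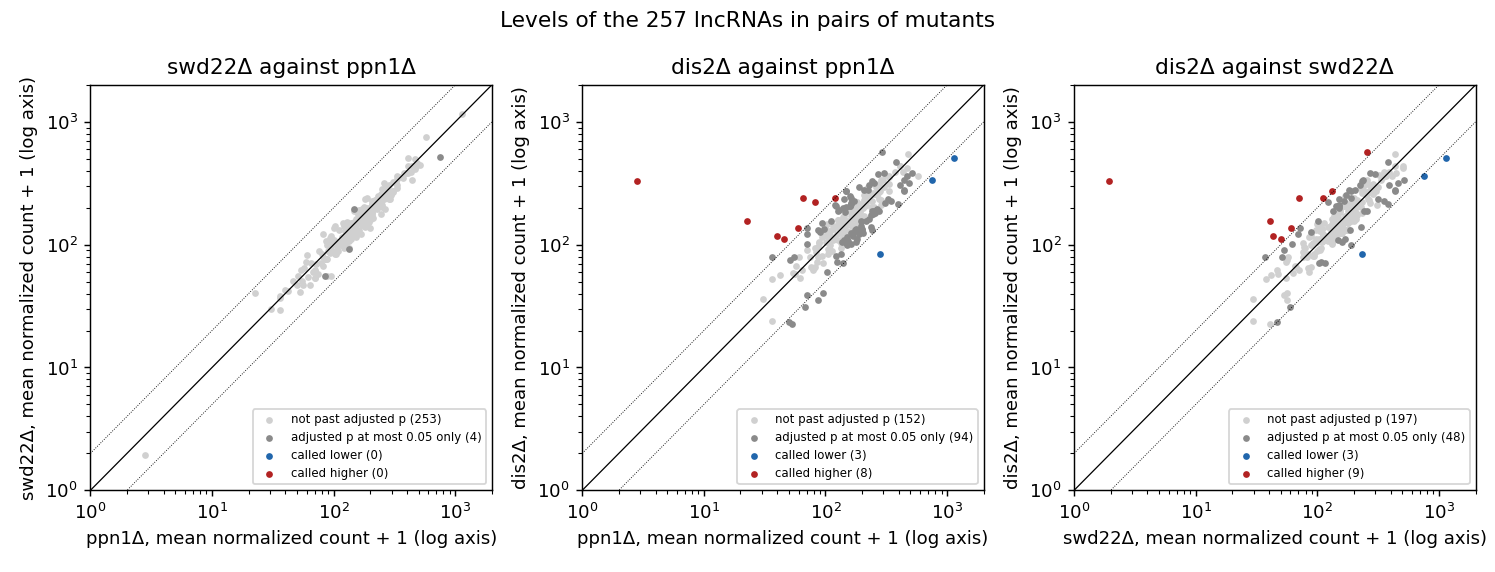
Mean normalized count plus 1 of each of the 257 lncRNAs in pairs of mutants (log axes; solid line, equal levels; dotted lines, 2-fold), with colors for the direct edgeR test. *swd22*Δ and *ppn1*Δ lie along the line with no called locus, while 8 loci were called higher and 3 lower in *dis2*Δ against *ppn1*Δ; *prl61* is the isolated point at the left.

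The named RNAs *nam1*, *rrk1* and *mrp1* stayed within 2-fold of wild-type. *nam1* (SPNCRNA.1459) is a cis-acting lncRNA that represses *byr2*, the MAP kinase kinase kinase gene of mating and meiosis that starts 211 nucleotides downstream of it. It carries 9 copies of TNAAAC, the core of the element that Mmi1 binds, and a stretch with 4 of them, in capitals, is printed to show what Mmi1 recognizes (II:1742699-1742774, minus strand, RefSeq ASM294v3).
*nam1*: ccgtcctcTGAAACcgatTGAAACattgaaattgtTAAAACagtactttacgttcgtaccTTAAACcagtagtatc
Its normalized counts were 223.9, 210.7 and 237.4 in wild-type cells, 166.9, 162.4 and 158.2 in *ppn1*Δ, 182.4, 186.5 and 200.7 in *swd22*Δ and 230.9, 222.0 and 264.4 in *dis2*Δ. *ppn1*Δ was below wild-type without overlap (log2 -0.46 ± 0.113, adjusted p = 0.0028), and the changes in *swd22*Δ (-0.24, adjusted p = 0.1) and *dis2*Δ (0.1, 0.52) did not pass the test. *byr2* changed by log2 0.19 (adjusted p = 0.055), 0.56 (2.8e-05) and 0.61 (1.5e-05). TNAAAC occurred on the transcript strand of 89.8% of the 256 matched loci and 80.0% of the other SPNCRNA loci, which are shorter. Its median density was 1.96 and 1.87 per kb, and across the loci the density had a Spearman rho of -0.06, -0.05 and -0.08 with the log2 fold changes in the 3 mutants.

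*rrk1* and *mrp1*, the RNAs of the tRNA- and rRNA-processing ribonucleases, did not pass the test in *ppn1*Δ (log2 0.08 and 0.28) or *swd22*Δ (0.15 and 0.08). In *dis2*Δ they rose by log2 0.71 ± 0.201 (adjusted p = 0.0095) and 0.69 ± 0.204 (0.012), and without replicate 3 of *dis2*Δ the adjusted p was 0.055 and 0.054. The libraries were made from poly(A)+ RNA, so these values cover the RNA that this selection recovered and not the total level of *rrk1* and *mrp1*. *rrk1* had 143.9, 155.4 and 155.0 normalized counts in wild-type and 184.3, 265.9 and 293.5 in *dis2*Δ. The densest locus, SPNCRNA.907, also rose in *dis2*Δ, by 0.43 (adjusted p = 0.0061), and SPNCRNA.1021 did not pass the test in any mutant.

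The genes of lncRNA decay and termination changed by less than 2-fold. Of a list of 27 such genes 25 were matched and tested, and neither edgeR nor DESeq2 called any of them in any mutant. By adjusted p 5 of the 25 rose and 7 fell in *ppn1*Δ, where 24.5% and 25.2% of all loci did. In *swd22*Δ 1 rose and 4 fell (19.3% and 20.5% of all loci), and in *dis2*Δ 3 and 7 (19.5% and 21.8%). In the 3 mutants 13, 7 and 10 had an unadjusted p under 0.05. The median log2 fold changes of the list were -0.07, -0.05 and -0.08. *mmi1*, which encodes the YTH-domain protein, fell in all 3 mutants, with log2 fold changes of -0.61, -0.45 and -0.53 from 2068.9 ± 112.5 (SD, n = 3) normalized counts in wild-type. The exonuclease gene *exo2* (log2 -0.43, -0.22 and -0.16) and the exosome nuclease gene *dis3* (-0.27, -0.19 and -0.2) fell too. *pcf11*, a cleavage factor gene, rose by 0.19 in *ppn1*Δ and 0.27 in *swd22*Δ. Other genes of the list that rose past adjusted p were *erh1* (0.29), *mtl1* (0.26), *cid14* (0.31) and *air1* (0.29) in *ppn1*Δ. In *dis2*Δ they were *erh1* (0.34), *rmn1* (0.15) and *din1* (0.22).

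Base composition went along with the changes. Across the 256 annotated loci the Spearman rho of the log2 fold change with GC content was 0.3, 0.38 and 0.51 in the 3 mutants, against -0.18, -0.03 and 0.04 across 4975 coding genes of the same libraries. These values are across loci, which are not independent replicates. Among the 86 loci with the lowest GC content (29.1% to 34.2%) 2 were called higher and 16 lower in *ppn1*Δ, 2 and 21 in *swd22*Δ, and 1 and 20 in *dis2*Δ. Among the 85 with the highest (36.5% to 42.4%) 7 were higher and 9 lower in *ppn1*Δ, 6 and 6 in *swd22*Δ, and 5 and 2 in *dis2*Δ. GC content and position moved together, since 26 of the 86 and 68 of the 85 were antisense loci.

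Within the lowest-GC group the 60 loci that were not antisense had medians of -0.39, -0.59 and -0.42 and the 26 antisense ones -0.06, -0.24 and -0.36. Within the highest-GC group the 17 not antisense had -0.01, -0.04 and 0.3 and the 68 antisense 0.14, 0.11 and 0.33. The low-GC loci away from antisense positions thus held 15 of the 27 falls called in *ppn1*Δ, 19 of the 31 in *swd22*Δ and 16 of the 26 in *dis2*Δ. With a GC correction fitted on the coding genes, added after the data were seen, the calls were 15 higher and 29 lower in *ppn1*Δ, 12 and 30 in *swd22*Δ, and 10 and 25 in *dis2*Δ. Length had a rho of 0.35, 0.35 and 0.25. The part of base composition and length in the results was not tested further.

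**Figure D5:**
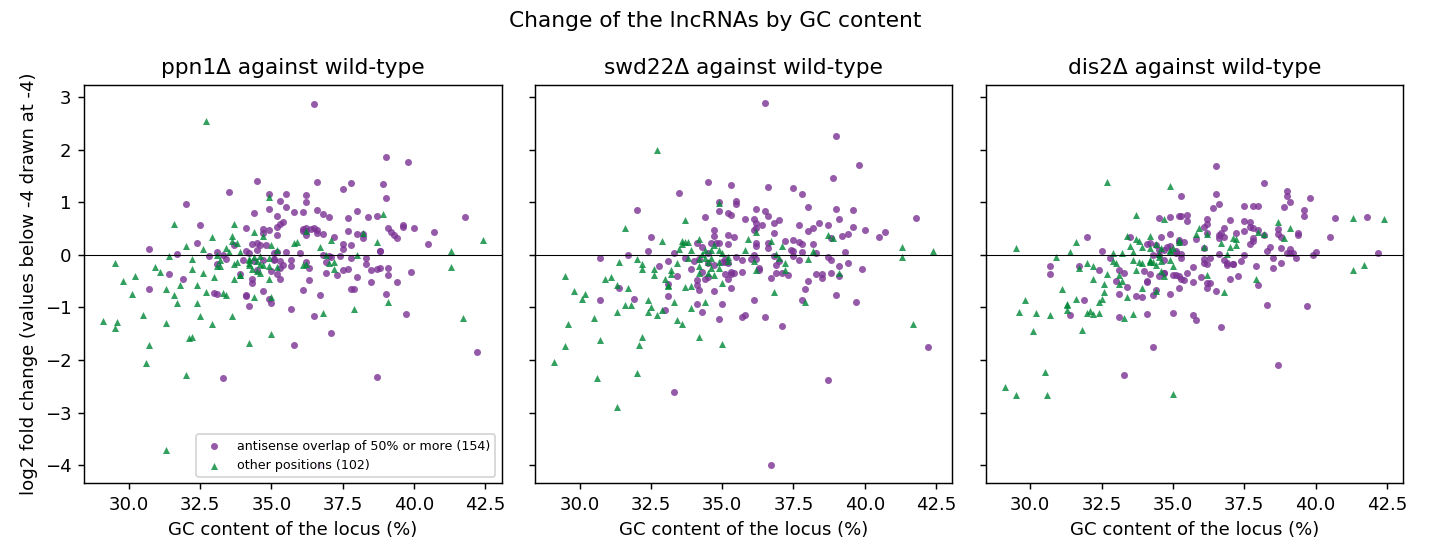
log2 fold change against wild-type (vertical axis, values below -4 drawn at -4) by GC content of the locus in percent, for 154 antisense loci (circles) and 102 at other positions (triangles) in each mutant. Points at the low-GC end lie mainly below 0, and the Spearman rho is 0.3, 0.38 and 0.51 from left to right.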

How the data were processed

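The deposited values are raw counts per annotated locus, made by the authors from 51-base paired reads of strand-specific poly(A)+ libraries with HISAT2 2.1.0, SAMtools and HTSeq 0.10.0 on ASM294v2; the strand setting of the counting is not given in the sources used here. The table has 6987 entries for 6986 IDs (1 ID occurs 2 times and was summed), all sample columns were used, and the study's DESeq2 results were not used here.

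Names, classes, neighbors, sequences and positions are from RefSeq ASM294v3, to which 6846 IDs matched; no coordinates were converted.

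edgeR 4.0.16 (R 4.3.3; filterByExpr, TMM, quasi-likelihood, all 12 libraries in 1 fit) tested 6110 loci, with Benjamini-Hochberg adjustment over all of them. In place of the study's DESeq2 this was the main test, and DESeq2 1.42.0 an alternative. Replicates are the biological replicates of the labels, and libraries of 1 strain differed by more than their counts would scatter (chi-square/df from 5.38 to 23.6; common dispersion 0.00563). Depth was 17616688 to 23435936 counts per library, and at 100 counts the counting error alone is 10.0%. Simulated data were used to check the fit.

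The loci, lists and named loci were chosen with earlier results of these data known. Named are the loci called with the same sign in all mutants (at most 12), the 4 largest rises and falls per mutant, the 3 largest per sign in each mutant pair, the highest and lowest per kb, those with a symbol, and their coding neighbors; any other locus named was chosen after its values were seen. Alternatives were DESeq2, other scalings and filters, the compared strains alone, a replicate block, other cutoffs, a window of 400 to 700 counts and each library left out; a GC correction, the window applied to mutants and a set without 4 atypical loci were added after seeing the data. Positions were taken as antisense from 50% overlap. Figures were drawn with matplotlib 3.10.9 in Python 3.11.15; tables were made with pandas 2.3.3, scipy 1.17.1 and numpy 2.4.6.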

Additional observations from a re-analysis of the deposited data

Results flagged for a closer look

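SPNCRNA.936 went in opposite directions in different mutants, and the direct test of *dis2*Δ against *ppn1*Δ gave a log2 difference of -1.76 and that against *swd22*Δ one of -1.49. SPNCRNA.1015, named here after its values were seen, did the same between *ppn1*Δ and *dis2*Δ. It had 152, 189 and 116 raw counts in wild-type cells, 87, 58 and 120 in *ppn1*Δ, 108, 133 and 115 in *swd22*Δ and 245, 203 and 200 in *dis2*Δ. Against wild-type it changed by log2 -0.9 (edgeR adjusted p = 0.00027) in *ppn1*Δ and 0.52 (0.012) in *dis2*Δ, and the direct difference was 1.42.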

How the results depend on the processing

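The counts of loci called and of loci past adjusted p stayed within 1.5 times their value in most settings, and the exceptions follow. With a fold cutoff of 1.5 the calls rose to 88, 94 and 87 in the 3 mutants against wild-type, to 43 for *dis2*Δ against *ppn1*Δ and to 28 for *dis2*Δ against *swd22*Δ. The window of 400 to 700 counts held 139 loci and gave 25, 23 and 18 calls against wild-type, 4 and 5 for *dis2*Δ against *ppn1*Δ and *swd22*Δ, and 77, 67, 77, 1, 59 and 33 past adjusted p in the 6 comparisons, since fewer loci were counted. For *swd22*Δ against *ppn1*Δ the 4 past adjusted p became 10 with DESeq2, 2 with library size only, 1 with only the compared strains, 0 at an adjusted p of at most 0.01, and 0 to 7 with single libraries left out. For *dis2*Δ against *ppn1*Δ the 11 calls became 17 with no cutoff on the mean count and 19 with the window applied to the mutants, and the 105 past adjusted p became 58 at 0.01 and 65 to 91 with single libraries left out. For *dis2*Δ against *swd22*Δ the 60 became 31 and 38 to 59. The cause of these shifts, other than in the shorter window and stricter cutoffs, was not tested.

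Of the values of single named loci, 1174 kept their sign and their side of the adjusted p threshold, though some of these went under 2-fold, such as *meu16* and SPNCRNA.1340 above, 17 changed sign, 7 lost and 1 gained significance. No value that changed sign had passed the test. SPNCRNA.1021 in *ppn1*Δ was 0.04 with library size only and -0.3 to 0.09 with libraries left out, and SPNCRNA.907 was 0.07 with library size only, 0.03 with the GC correction and -0.09 to 0.06. With libraries left out *rrk1* ranged from -0.05 to 0.23 in *ppn1*Δ and from -0.06 to 0.34 in *swd22*Δ, *mrp1* from -0.16 to 0.35 in *swd22*Δ, and SPNCRNA.798 from -0.03 to 0.13 in *dis2*Δ.

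Same-numbered replicates were not paired, since the correlations of their deviations ran from -0.31 to 0.26 and 5 of 18 were over 0.1. A fit with a replicate block gave 44, 43 and 35 calls against wild-type and 0, 10 and 11 between mutants, with 142, 133, 136, 5, 105 and 60 past adjusted p. Depth limits the loci with few counts most, such as *prl61* where a library had 0 to 5 counts.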
